A study of Mus musculus with 6 samples.

Results

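Fibrillar and fibril-associated collagens were followed as a set of 8 genes (Col1a1, Col1a2, Col3a1, Col5a1, Col5a2, Col5a3, Col11a1 and Col12a1), named by symbol and not picked on a threshold, out of the 37991 genes counted. All 8 matched 1 Ensembl identifier each in the count files, and all 8 passed the filter on low counts. The cells were C2C12, a mouse myoblast line of C3H strain origin that can be made to differentiate into muscle, transduced with a lentivirus (LV) carrying a short hairpin against Kap1 (sh-Kap1, here shKap1) or against luciferase (sh-Luc, here shCtrl), so every library comes from transduced cells of 1 line. Kap1 is the scaffold protein also called TRIM28. Cells of the MT stage had been switched for 48 hours to a low-serum medium for differentiation. It was DMEM with 2% horse serum and an insulin-transferrin-selenium supplement. This stage gave 1 shKap1 and 1 shCtrl library. Proliferating myoblasts (MB) were grown in DMEM with 10% fetal calf serum and gave 2 shKap1 and 2 shCtrl libraries. Polyadenylated cytoplasmic RNA was sequenced, and the question the design poses is how Kap1 knockdown bears on expression before and during muscle differentiation.

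Collagen fibrils are rods of staggered collagen molecules, each molecule a helix wound from 3 chains that carry glycine at regular intervals. Type I collagen (chains Col1a1 and Col1a2) makes most of the fibril mass in tendon, bone and the connective tissue sheaths of muscle, and type III (Col3a1 chains alone) is mixed into it in soft tissues. Types V (Col5a1, Col5a2, Col5a3) and XI (Col11a1 with partner chains) sit inside fibrils, start their assembly and limit their width, while type XII (Col12a1) lies on the fibril surface and links it to other matrix. In muscle this matrix is made mostly by fibroblasts, but cultured myoblasts make it too.

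The promoters of 5 of the 8 genes are in the RefSeq promoter table (build GRCm38.p6), and 4 of them are shown, because their genes had unlike patterns across the libraries and because the series is about MyoD, a muscle transcription factor that binds E-boxes. Each line gives the 250 bases before the RefSeq start, 5′ to 3′ on the gene's strand. Capitals mark matches on either strand to an E-box with the letters CANNTG, to the pentamer CCAAT that gives the box of that name, or to a TATA box, searched as TATAAA. No matches overlap. The windows are chr6:4505368-4505617 (plus strand) for Col1a2, chr1:45311288-45311537 (plus) for Col3a1, chr9:20815068-20815317 (minus) for Col5a3 and chr3:114030290-114030539 (plus) for Col11a1. In the GENCODE M21 annotation Col1a2 begins at 4504814, so its window lies inside that gene and its matches depend on the start chosen. The other windows shown adjoin the GENCODE start.
Col1a2: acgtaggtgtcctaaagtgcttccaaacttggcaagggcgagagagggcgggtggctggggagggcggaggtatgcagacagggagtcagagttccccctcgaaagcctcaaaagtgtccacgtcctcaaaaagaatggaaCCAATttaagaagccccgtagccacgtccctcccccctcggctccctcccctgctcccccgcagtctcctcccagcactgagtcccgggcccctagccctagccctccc
Col3a1: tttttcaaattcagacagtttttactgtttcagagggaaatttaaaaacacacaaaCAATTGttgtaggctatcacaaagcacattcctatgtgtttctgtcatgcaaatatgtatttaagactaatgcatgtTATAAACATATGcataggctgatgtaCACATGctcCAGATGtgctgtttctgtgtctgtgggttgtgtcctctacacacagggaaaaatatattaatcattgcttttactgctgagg
Col5a3: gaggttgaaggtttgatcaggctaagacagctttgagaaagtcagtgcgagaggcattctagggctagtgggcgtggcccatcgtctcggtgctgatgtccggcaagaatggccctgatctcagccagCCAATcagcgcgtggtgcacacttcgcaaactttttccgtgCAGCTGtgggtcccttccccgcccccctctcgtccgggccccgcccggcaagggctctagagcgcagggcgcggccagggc
Col11a1: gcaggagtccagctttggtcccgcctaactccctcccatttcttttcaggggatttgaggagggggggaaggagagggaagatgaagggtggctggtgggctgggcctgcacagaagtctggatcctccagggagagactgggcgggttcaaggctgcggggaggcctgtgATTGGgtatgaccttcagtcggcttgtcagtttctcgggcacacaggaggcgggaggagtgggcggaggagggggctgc

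The Col3a1 window held 4 E-boxes and, 117 to 112 bases before the start, the TATA letters. With 35.2% G and C it was the most AT-rich of the 5. Col5a3 had 1 E-box and 1 CCAAT box, and Col1a2 and Col11a1 had 1 CCAAT box each and no E-box. The Col5a1 window, 76.4% G and C, held none of the motifs. Of 32851 promoter windows of the same length, 66.2% hold an E-box, 33.9% a CCAAT box and 12.4% the TATA letters, so each match alone is common. Such matches describe letters and do not show that a factor binds there.

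The libraries held 36247530 to 49839994 counts on genes, and a floor of 3 counts corresponded to 0.0619 to 0.0775 CPM (counts scaled to a common library size, which TMM corrects for library composition). Trim28, the gene for Kap1, stood at 114 CPM in MT shKap1 and 393 CPM in MT shCtrl, and at 150 and 102 CPM in MB shKap1 against 596 and 428 CPM in MB shCtrl (replicates 1 and 2), with no overlap at either stage. What separates the MB replicates is not given, but the names of the deposited files carry a mark on replicate 1 and both MT libraries that replicate 2 lacks. Tests were therefore made with group means alone and again with a term for the file mark, which lowered the biological coefficient of variation to 9.74%, against 32.9% without it. Group means alone (edgeR quasi-likelihood, Benjamini-Hochberg) called 0 genes in every comparison. There were 454 genes with unadjusted p under 0.05 for MB knockdown and 1383 for MT knockdown, and DESeq2 called 39 higher and 13 lower in MB and 60 higher and 308 lower in MT. Therefore "rose", "fell" and "called" below refer to the fit with the file mark term at an adjusted p of 0.05. The MT groups are 1 library each, so their tests assume that they vary as the MB libraries do once the file mark difference is taken out. That spread is smaller than the full difference between MB replicates. For Col3a1 in MT knockdown the SE was 0.163 with the term and 0.782 without it. Summed CPM of the 8 muscle markers was 706 in MT shKap1 and 7399 in MT shCtrl, and 365 and 921 in MB shKap1 against 460 and 866 in MB shCtrl.

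The collagens did not move as a block. In proliferating cells the knockdown libraries had more type I, V and XII chains (1.39 to 1.66-fold for Col1a1, Col1a2, Col5a1, Col5a2 and Col12a1) and 5.46-fold more Col11a1, while Col3a1 and Col5a3 were not called. After 48 hours in the low-serum medium Col1a1, Col3a1 and Col5a1 were lower in knockdown than in control cells (0.711, 0.482 and 0.638-fold), and Col5a2 and Col11a1 were higher (1.86 and 2.72-fold). The 8 genes together took 2.53% of the counts in MT shKap1 and 2.96% in MT shCtrl, and 1.69% and 1.82% in MB shKap1 against 1.07% and 1.34% in MB shCtrl.

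**Figure D1:**
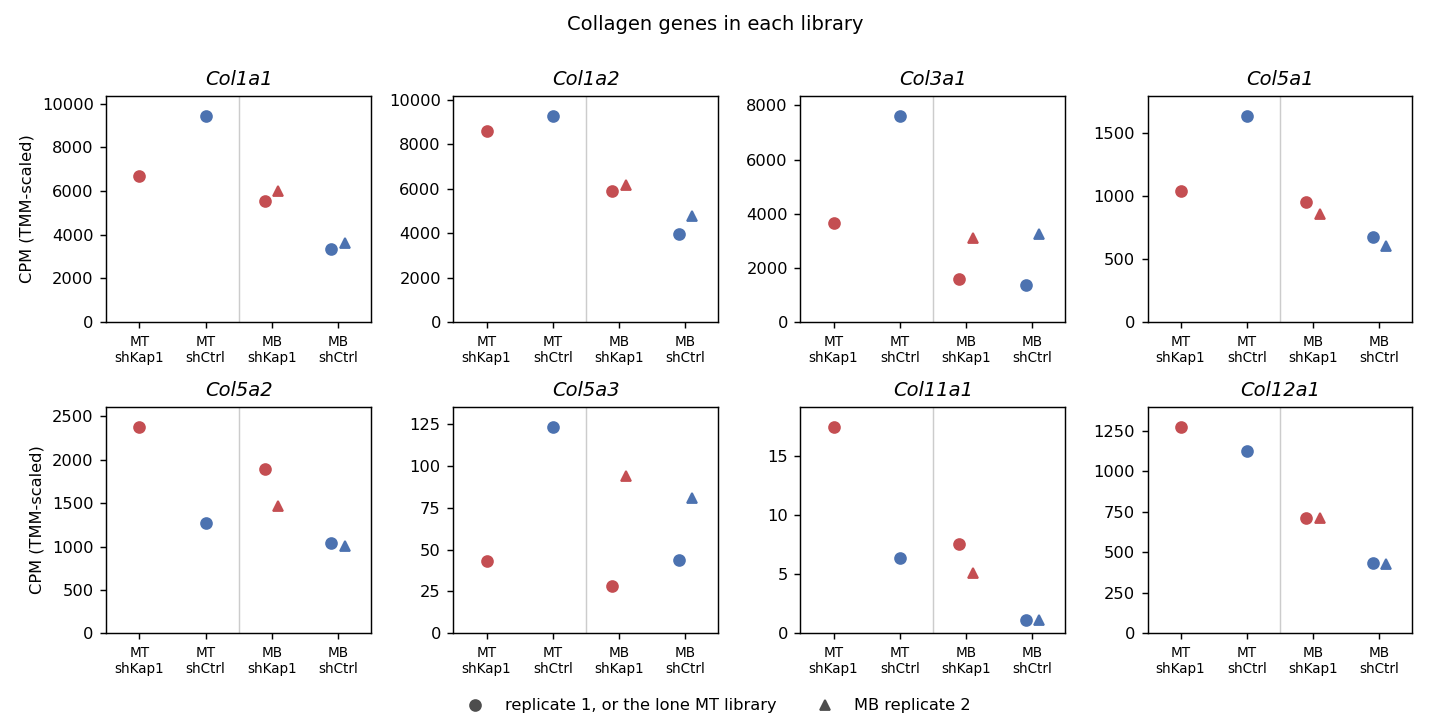
Level of each of the 8 collagen genes (vertical axis, TMM-scaled CPM from 0) in each of the 6 libraries, with knockdown in red and control in blue, circles for replicate 1 or the lone MT library and triangles for MB replicate 2. In MB the knockdown points lie above the control points for Col1a1, Col1a2, Col5a1, Col5a2, Col11a1 and Col12a1, whereas the Col3a1 and Col5a3 points split by replicate. The share of all genes whose MB points separate in this way was not counted.

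Per kilobase of annotated exon, the 2 type I chains were the most abundant members in all 6 libraries. Col1a2 reached 1609 CPM per kilobase in MT shKap1 and 1734 in MT shCtrl, and 1103 and 1156 in MB shKap1 against 741 and 893 in MB shCtrl. Col1a1 followed at 1130 and 1590 CPM per kilobase in MT shKap1 and MT shCtrl, at 933 and 1010 in MB shKap1 and at 564 and 613 in MB shCtrl. Col1a2 was ahead of Col1a1 in every library, by a margin that in MB knockdown was wider than the difference between replicates. Next in order was Col3a1 in 5 of the 6 libraries, and in MB shKap1 replicate 1 it was level with Col5a2 (285 and 286 CPM per kilobase). Because Col3a1 spanned 249 to 584 CPM per kilobase between the MB control replicates, its distance from Col5a2 there (156 and 152) is uncertain in size. Col5a1 (71.7 to 195 CPM per kilobase) lay above Col12a1 (35.2 to 105) in each library. Col5a3 (4.60 to 20.1) and Col11a1 (0.148 to 2.27) were the scarcest in each.

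Col1a1, whose chain makes the larger part of type I collagen, had 6704 CPM in MT shKap1 and 9432 CPM in MT shCtrl, and 5532 and 5992 CPM in MB shKap1 against 3342 and 3634 CPM in MB shCtrl. Both MB knockdown libraries lay above both MB control libraries, and the order was the opposite in MT. Knockdown changed Col1a1 on the log2 scale by 0.72 in MB (SE 0.109, adjusted p = 0.0057) and by -0.49 in MT (SE 0.154, adjusted p = 0.0471), and the MT call was lost when libraries were scaled by total count (adjusted p = 0.12). Within replicate 1 and replicate 2 of MB the difference was nearly the same, at 0.73 and 0.72. Col1a2, the other type I chain, had 8607 CPM in MT shKap1 and 9271 CPM in MT shCtrl, and 5900 and 6183 CPM in MB shKap1 against 3961 and 4775 CPM in MB shCtrl. The MB groups did not overlap, with a log2 change of 0.47 (SE 0.114, adjusted p = 0.0499) that was just past the threshold and no longer so with DESeq2 size factors (0.0679) or total counts (0.0571). In MT the Col1a2 difference was -0.11 (SE 0.161, adjusted p = 0.687) and became 0.03 with total counts.

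Col3a1, the type III chain, had 3661 CPM in MT shKap1 and 7602 CPM in MT shCtrl, and 1588 and 3106 CPM in MB shKap1 against 1383 and 3250 CPM in MB shCtrl. The MB groups overlapped fully, since replicate 2 exceeded replicate 1 by 0.97 on the log2 scale in knockdown and by 1.23 in control cells. The knockdown difference in MB was 0.07 (SE 0.114, adjusted p = 0.831), at 0.20 within replicate 1 and -0.07 within replicate 2. In MT the log2 change was -1.05 (SE 0.163, adjusted p = 0.00155). On the annotation of build GRCm38 Col3a1 (chromosome 1, 45311538 to 45349706, plus strand) and Col5a2 (45374321 to 45503282, minus strand) face each other tail to tail with 24.6 kb between them. These neighbours went in opposite directions on knockdown in MT.

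Col5a2, the chain that completes the common type V molecule, had 2372 CPM in MT shKap1 and 1275 CPM in MT shCtrl, and 1892 and 1467 CPM in MB shKap1 against 1037 and 1007 CPM in MB shCtrl. Every knockdown library was above every control library of either stage. On the log2 scale Col5a2 was 0.71 higher in MB (SE 0.115, adjusted p = 0.00808) and 0.90 higher in MT (SE 0.163, adjusted p = 0.00402). Its partner Col5a1, which carries the part of type V that limits fibril width, had 1045 CPM in MT shKap1 and 1637 CPM in MT shCtrl, and 957 and 860 CPM in MB shKap1 against 678 and 603 CPM in MB shCtrl. Col5a1 thus was higher on knockdown in MB (log2 change 0.50, SE 0.101, adjusted p = 0.0223) and lower in MT (-0.65, SE 0.143, adjusted p = 0.0105). Col5a3, a less widely expressed type V chain, had 43.0 CPM in MT shKap1 and 123 CPM in MT shCtrl, and 28.2 and 93.9 CPM in MB shKap1 against 43.5 and 81.0 CPM in MB shCtrl. Like Col3a1 it was higher in replicate 2 of both MB groups. It was not called in MB (log2 difference -0.20, SE 0.238, adjusted p = 0.764, with -0.63 and 0.21 within replicates 1 and 2). In MT the value was -1.51 (SE 0.338, adjusted p = 0.0614), which passed with DESeq2 size factors (0.0479) and with DESeq2's own test (9.81e-07). Another edgeR setting with the file mark term went the other way, to an adjusted p of 0.219.

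Col11a1, a type XI chain known best from cartilage, was scarce in controls and showed the largest knockdown difference of the set in MB. It had 17.4 CPM in MT shKap1 and 6.40 CPM in MT shCtrl, and 7.54 and 5.06 CPM in MB shKap1 against 1.14 and 1.14 CPM in MB shCtrl. In counts these were 674 and 310 in MT, 357 and 218 in MB knockdown and 47 and 45 in MB control, so the groups were far apart at either stage. Col11a1 rose on the log2 scale by 2.45 in MB (SE 0.217, adjusted p = 0.000374; 2.73 and 2.16 within replicates) and by 1.44 in MT (SE 0.254, adjusted p = 0.00321). Col12a1, the fibril surface collagen, had 1272 CPM in MT shKap1 and 1126 CPM in MT shCtrl, and 713 and 714 CPM in MB shKap1 against 434 and 428 CPM in MB shCtrl. Its MB replicates lay close together in both groups, and the log2 difference was 0.73 for the MB groups (SE 0.1, adjusted p = 0.00367) and 0.18 for the MT pair (SE 0.141, adjusted p = 0.423).

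Counted together, 6 of the 8 genes rose and 0 fell in MB knockdown, where 2.51% of the 16472 tested genes rose and 1.34% fell. The median log2 change of the 8 was 0.60, beside -0.01 over all tested genes. With group means alone 0 of the 8 passed (edgeR), 6 had unadjusted p under 0.05, and DESeq2 called 3. Among all 16472 tested genes 454 had unadjusted p under 0.05 in that edgeR fit, and DESeq2 called 39 higher and 13 lower. In MT knockdown 2 rose and 3 fell, where 9.09% of tested genes rose and 11.2% fell, with a median of -0.30 over the 8 and 0.02 over all genes. Total count scaling moved the median of all genes by 0.137 in MT and gave 14.1% higher and 8.41% lower. With total counts 4 of the 8 passed, Col1a1 being the one lost, and Col1a2 turned to 0.03. Group means alone called 0 of the 8 in MT (edgeR), 3 had unadjusted p under 0.05 and DESeq2 called 0. Among all tested genes 1383 had unadjusted p under 0.05 in that edgeR fit, and DESeq2 called 60 higher and 308 lower.

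**Figure D2:**
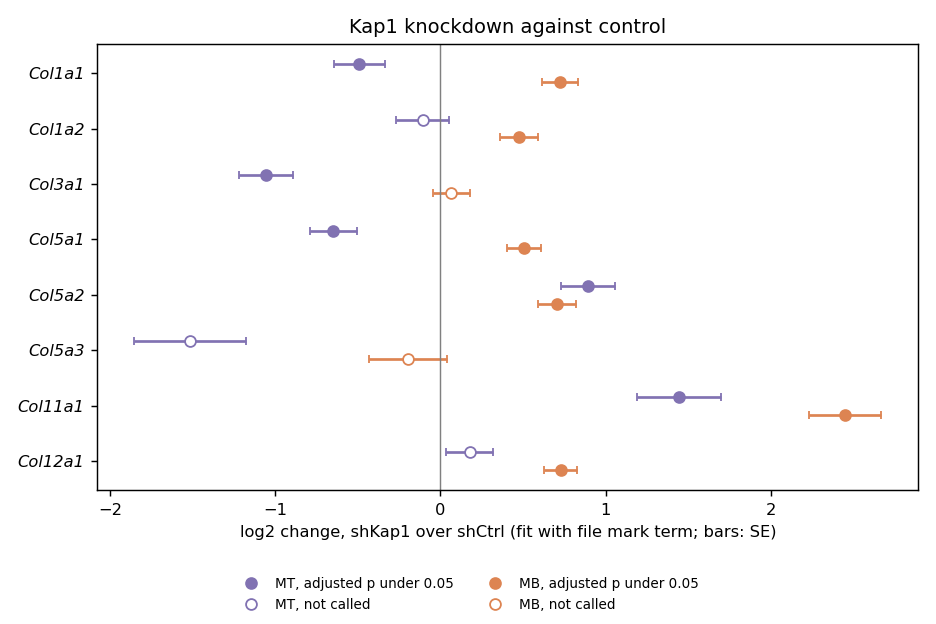
Log2 change on Kap1 knockdown for each collagen gene (horizontal axis, shKap1 over shCtrl, bars of 1 SE, fit with the file mark term), in MT (purple) and MB (orange), with filled points for an adjusted p under 0.05. In MB 6 genes lie to the right of 0 beyond their error, while in MT Col5a3 (-1.51, not called) lies furthest left, Col1a1, Col3a1 and Col5a1 lie to the left as calls, and Col5a2 and Col11a1 lie to the right.

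Whether the knockdown difference itself changed with stage was tested as the MT effect minus the MB effect. It fell by 1.22 on the log2 scale for Col1a1 (SE 0.189, adjusted p = 0.00279), by 1.15 for Col5a1 (SE 0.175, adjusted p = 0.00251) and by 1.12 for Col3a1 (SE 0.198, adjusted p = 0.0057). The other 5 were not called, with values of -0.58 for Col1a2, -0.55 for Col12a1, -1.01 for Col11a1, -1.32 for Col5a3 and 0.19 for Col5a2. With no low-count filter 6 of the 8 were called, adding Col1a2 (adjusted p = 0.0467), Col11a1 (0.0473) and Col12a1 (0.0298), and DESeq2 with the same term called 5, adding Col1a2 (0.0449) and Col5a3 (0.00224). Each of these 4 also had a weaker value among the edgeR and DESeq2 alternatives with the term. Their adjusted p reached 0.163 for Col1a2, 0.5 for Col11a1, 0.123 for Col12a1 and 0.423 for Col5a3. Of all tested genes 3.82% were higher and 6.63% lower in this comparison, or 5.58% and 5.13% with total counts, which moved the median of all genes by 0.106. DESeq2 with the file mark term called 266 higher and 692 lower over all tested genes. No count over all genes was made without the low-count filter. Without the file mark term 0 of the 8 passed (edgeR), 2 had unadjusted p under 0.05 and DESeq2 called 2. Among all 16472 tested genes 825 had unadjusted p under 0.05 in that edgeR fit, and DESeq2 called 19 higher and 147 lower. Muscle marker sums, given above, differed between MT shKap1 and MT shCtrl, and their part in these stage differences was not tested.

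Differentiation of control cells was accompanied by more collagen RNA. In MT shCtrl, set against MB shCtrl, 7 of the 8 genes rose and 0 fell, while 22.3% of all tested genes rose and 22.6% fell. Col3a1 rose most among the abundant chains (log2 change 2.39, SE 0.151, adjusted p = 1.16e-06), followed by Col1a1 (2.82-fold, adjusted p = 1.94e-05), Col12a1 (log2 change 1.38), Col5a1 (1.28) and Col1a2 (1.18). The 2 scarce chains rose as well, Col11a1 by 2.31 (SE 0.267, adjusted p = 7.64e-05) and Col5a3 by 1.70 (SE 0.299, adjusted p = 0.0182, or 0.1 with no filter on low counts). Col5a2 stood at 0.22 (SE 0.152, adjusted p = 0.277). The file mark term moved Col3a1 and Col5a3 most: group means alone gave 1.71 and 0.98. The plain log2 ratio of MT to MB replicate 1, which carries the same mark, was 2.46 for Col3a1. With group means alone 0 of the 8 passed (edgeR), 5 had unadjusted p under 0.05 and DESeq2 called 6. Of all 16472 tested genes 4174 had unadjusted p under 0.05 in that edgeR fit, and DESeq2 called 1292 higher and 1092 lower.

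In MT shKap1, set against MB shKap1, 4 of the 8 rose and 0 fell, where 16.6% of tested genes rose and 16.5% fell. These were Col11a1 (log2 change 1.30, SE 0.235, adjusted p = 0.00238), Col3a1 (1.27, SE 0.147, adjusted p = 0.000192), Col12a1 (0.83, SE 0.13, adjusted p = 0.00111) and Col1a2 (0.59, SE 0.148, adjusted p = 0.012). Col1a1 stood at 0.28 (adjusted p = 0.161) and Col5a1 at 0.12 (adjusted p = 0.505). Col5a2 was at 0.41 (adjusted p = 0.061, or 0.0403 with total counts) and Col5a3 at 0.38 (adjusted p = 0.439), the last with group means alone at -0.50. Group means alone called 0 of the 8 (edgeR), with 3 at unadjusted p under 0.05 and 2 called by DESeq2. Over all 16472 tested genes 2511 had unadjusted p under 0.05 in that edgeR fit, and DESeq2 called 358 higher and 485 lower. Both differentiation comparisons share the estimate of the file mark difference, and medium and serum differ between MB and MT along with stage.

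**Figure D3:**
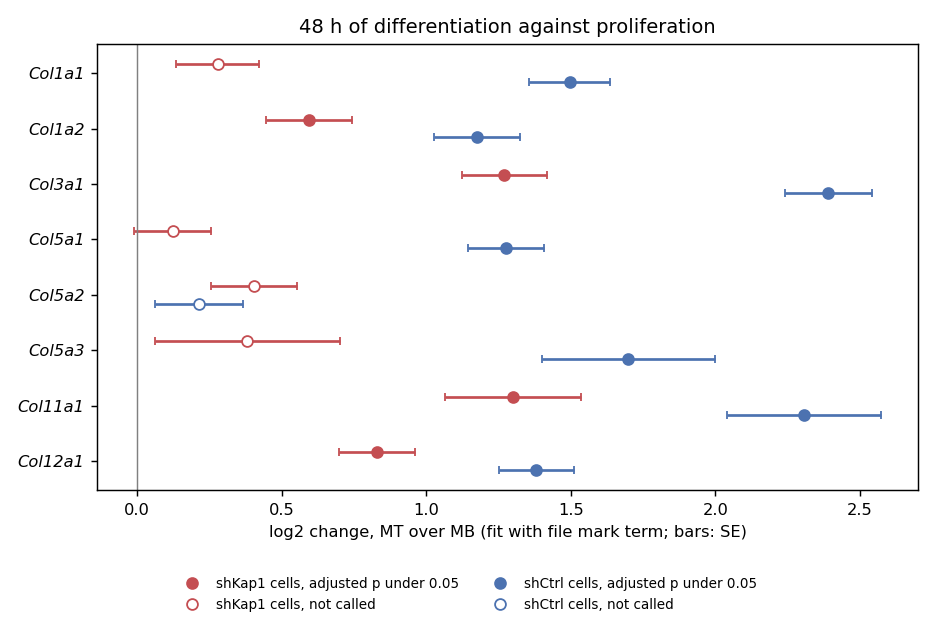
Log2 change between MT and MB for each collagen gene (horizontal axis, MT over MB, bars of 1 SE, fit with the file mark term), in shKap1 cells (red) and shCtrl cells (blue), with filled points for an adjusted p under 0.05. The control points lie further right than the knockdown points for every gene except Col5a2, most widely for Col1a1, Col3a1, Col5a1 and Col5a3.

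Ratios of chains within a library do not depend on library scaling and show how the make-up of the set differed. The log2 ratio of Col5a2 to Col5a1 counts was 1.18 in MT shKap1 and -0.36 in MT shCtrl, and 0.98 and 0.77 in MB shKap1 against 0.61 and 0.74 in MB shCtrl. Per kilobase of exon the 2 type V chains were thus equal in MT shCtrl (ratio 0.988), whereas Col5a2 exceeded Col5a1 between 1.94 and 2.88-fold in the other 5 libraries. The log2 ratio of the type I chains, Col1a1 to Col1a2, was -0.36 in MT shKap1 and 0.02 in MT shCtrl, and -0.09 and -0.05 in MB shKap1 against -0.25 and -0.39 in MB shCtrl. It was higher with knockdown in MB, with no overlap, and lower with knockdown in MT. Per length there was 0.686 to 0.917 Col1a1 for each Col1a2.

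Type III to type I, as the log2 ratio of Col3a1 to Col1a1, was -0.87 in MT shKap1 and -0.31 in MT shCtrl, and -1.80 and -0.95 in MB shKap1 against -1.27 and -0.16 in MB shCtrl. It was lower with knockdown within each replicate number and in MT, but the MB groups overlapped. Col12a1 to Col1a1 was -2.40 in MT shKap1 and -3.07 in MT shCtrl, and -2.96 and -3.07 in MB shKap1 against -2.94 and -3.09 in MB shCtrl. The 5 libraries other than MT shKap1 kept this ratio within a narrow band. Col5a3 to Col5a1 was -4.60 in MT shKap1 and -3.74 in MT shCtrl, and -5.09 and -3.19 in MB shKap1 against -3.96 and -2.90 in MB shCtrl, lower with knockdown in each like-numbered pair of libraries. These ratios are given as values per library, and no test was run on them.

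**Figure D4:**
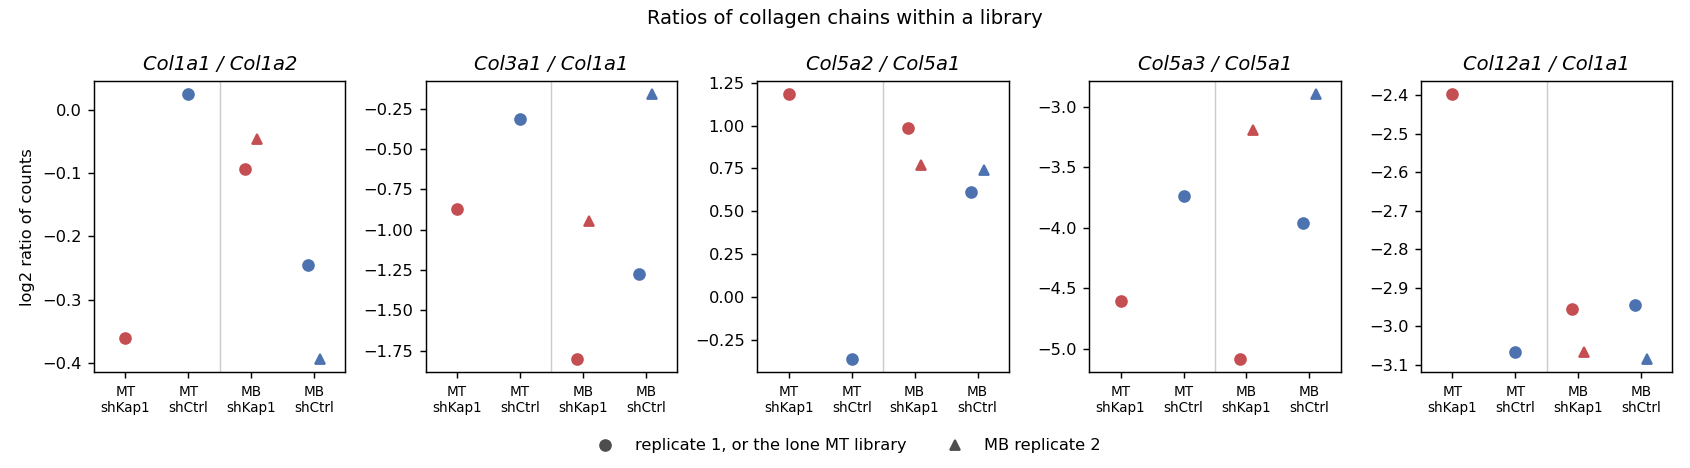
Log2 ratio of the counts of 2 collagen genes within each library (vertical axes, each with its own range), with knockdown in red and control in blue, circles for replicate 1 or the lone MT library and triangles for MB replicate 2. The Col5a2 to Col5a1 ratio is between 0.61 and 1.18 in 5 libraries and -0.36 in MT shCtrl, and the Col12a1 to Col1a1 ratio stands apart in MT shKap1.

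Of 13 other fibrillar and fibril-associated collagens, 10 passed the filter on low counts. In MB knockdown 4 of the 10 rose and 0 fell, where 2.51% of all tested genes rose and 1.34% fell. In MT knockdown 1 rose and 1 fell, which is near the 9.09% and 11.2% of all tested genes. Col27a1, a fibrillar collagen of cartilage, rose at both stages, with 48.1 CPM in MT shKap1 and 12.9 CPM in MT shCtrl, and 11.9 and 4.87 CPM in MB shKap1 against 2.64 and 0.984 CPM in MB shCtrl. Col27a1 rose on the log2 scale by 2.23 in MB (SE 0.159, adjusted p = 9e-05) and by 1.90 in MT (SE 0.184, adjusted p = 7.71e-05). Col11a2, which can join Col11a1 in type XI, rose in MB (1.00, adjusted p = 0.0065), as did Col16a1, a fibril-associated collagen (0.40, adjusted p = 0.0463). Col26a1, which despite its place in the list is not known as a fibril collagen, had 152 counts in MB shKap1 and 3 in MB shCtrl, a ratio of 45.4 (95% counting interval 15.2 to 222). The replicates differed widely, with a ratio of 16.6 (4.29 to 142) from 38 counts in MB shKap1 and 2 in MB shCtrl in replicate 1, and of 105 (18.4 to 4176) from 114 counts in MB shKap1 and 1 in MB shCtrl in replicate 2. Col24a1, a fibrillar collagen, fell in MT (-1.68, adjusted p = 0.0275; 5.14 CPM in MT shKap1 and 16.5 CPM in MT shCtrl). Col22a1, a collagen of the muscle-tendon junction, had 1 count in MT shKap1 and 15 in MT shCtrl, a ratio of 0.0834 (interval 0.00198 to 0.542), with an adjusted p of 0.0705 in edgeR.

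Genes that fold, modify, secrete and cross-link collagen numbered 33, of which 30 were tested. In MB knockdown 5 of the 30 rose and 0 fell, with a median log2 change of 0.16, beside 2.51% and 1.34% of all tested genes. They included Adamts2, which cuts off the amino-terminal propeptide (0.82, adjusted p = 0.00359; 90.4 and 84.8 CPM in MB shKap1 against 45.1 and 54.3 CPM in MB shCtrl). Also higher were Loxl1, a cross-linking oxidase (0.92, adjusted p = 0.00512), Sparc, a collagen-binding matrix protein (0.61, adjusted p = 0.0223), P3h2, a prolyl hydroxylase (1.59, adjusted p = 0.00158), and P4ha3, a prolyl hydroxylase subunit (0.56, adjusted p = 0.027). In MT knockdown 4 of the 30 rose and 11 fell, with a median of -0.31, where 9.09% of all tested genes rose and 11.2% fell (14.1% and 8.41% with total counts), so the number that rose is near that share. The prolyl hydroxylase subunits P4ha1 (295 CPM in MT shKap1 and 747 CPM in MT shCtrl, log2 change -1.34, adjusted p = 0.000109) and P4ha2 (-1.13, adjusted p = 0.000259), whose product stabilises the collagen helix, fell. So did Adamts14, a propeptide-cutting relative of Adamts2 (-1.04, adjusted p = 0.00211). Adamts2 (-0.68, adjusted p = 0.0122) and Loxl1 (-0.68, adjusted p = 0.0235), both higher with knockdown in MB, were lower in MT. P3h2 rose in MT too (2.09, adjusted p = 0.00038; 9.24 CPM in MT shKap1 and 2.17 CPM in MT shCtrl). Mia3, needed for export of bulky collagens from the endoplasmic reticulum, is listed at 0 in all 6 libraries. The annotation release used for counting is not given, so this 0 does not show that Mia3 is unexpressed.

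Collagen receptors and turnover genes numbered 15, of which 14 were tested. In MB knockdown Ddr1, a collagen-binding receptor kinase, was the 1 gene of 14 that rose (0.52, adjusted p = 0.0121), and 0 fell, beside 2.51% and 1.34% of all tested genes. Itga11, a collagen-binding integrin, had 79.6 CPM in MT shKap1 and 126 CPM in MT shCtrl, and 21.5 and 10.6 CPM in MB shKap1 against 3.48 and 3.96 CPM in MB shCtrl, a log2 difference of 2.04 in MB that was not called (adjusted p = 0.21). Itga1, another collagen-binding integrin (0.97, adjusted p = 0.141), and Mmp14, a membrane collagenase (0.27, adjusted p = 0.172), were not called there either. In MT knockdown 0 of the 14 rose and 5 fell, beside 9.09% and 11.2% of all tested genes. These were the collagenases Mmp13 (1.11 CPM in MT shKap1 and 16.5 CPM in MT shCtrl, log2 change -3.89, adjusted p = 4.48e-05) and Mmp8 (-2.34, adjusted p = 0.0199), the gelatinase Mmp2 (-0.84, adjusted p = 0.0409), the integrin Itga10 (-2.18, adjusted p = 0.00156) and Mrc2, a receptor that takes up collagen (-0.47, adjusted p = 0.036). In MT shCtrl against MB shCtrl 8 of the other collagens rose and 0 fell, with 17 and 6 in the folding list and 10 and 1 among receptors and turnover genes, beside 22.3% and 22.6% of all tested genes. The 6 folding genes that fell are near that share. In MT shKap1 against MB shKap1 the counts were 4 and 0, 8 and 5, and 4 and 0, beside 16.6% and 16.5% of all tested genes, and the 5 folding genes that fell are again near it. Group means alone called 0 genes of the 3 lists in either knockdown comparison (edgeR), with 3, 2 and 1 genes at unadjusted p under 0.05 in MB and 0, 4 and 2 in MT, in the order of the lists here. Over all 16472 tested genes 454 had unadjusted p under 0.05 in MB and 1383 in MT in that edgeR fit.

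**Figure D5:**
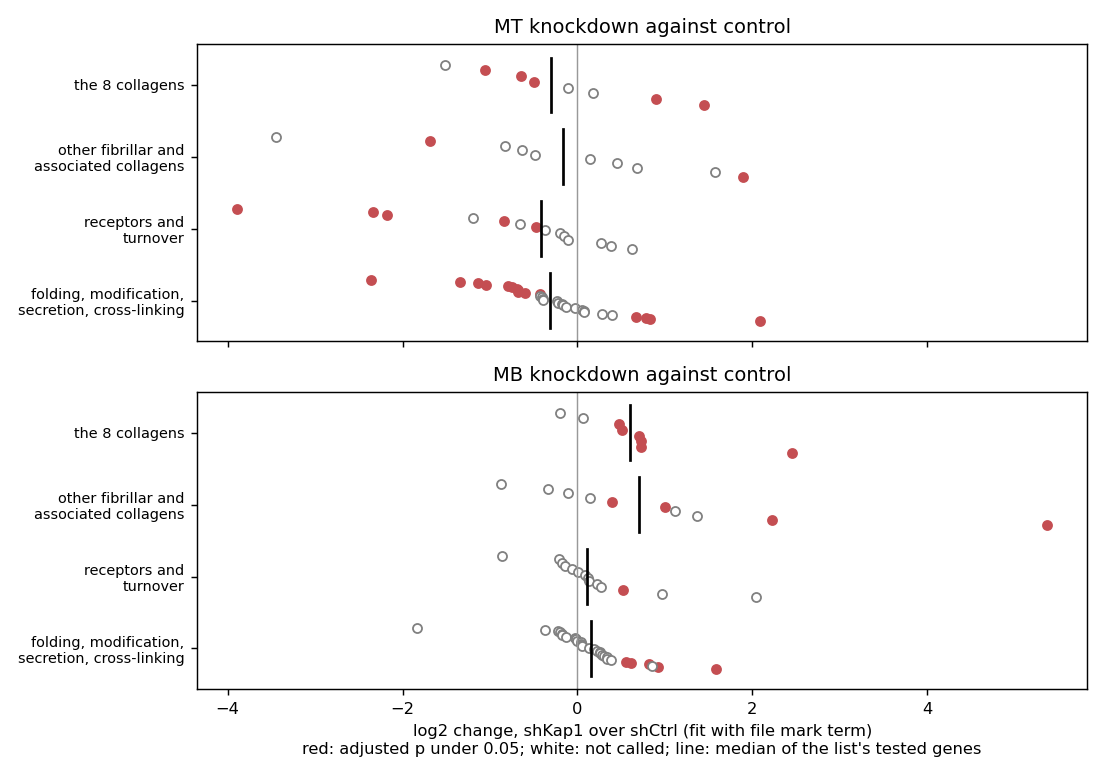
Log2 change on Kap1 knockdown (horizontal axis, shKap1 over shCtrl, fit with the file mark term) of every tested gene in the 8 collagens and the 3 related lists, in MT (upper panel) and MB (lower panel), with red for an adjusted p under 0.05 and a line at each list's median. The medians are right of 0 for all 4 sets in MB and left of 0 for all 4 in MT.

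Among the 8 genes, Col1a2 followed their mean profile over the 6 libraries most closely (root mean square difference 0.0979 on the log2 scale), with Col1a1 (0.124), Col12a1 (0.177) and Col5a1 (0.235) next. Col5a2 (0.436), Col3a1 (0.517), Col5a3 (0.736) and Col11a1 (0.857) departed further. The mean includes each member itself, so these values cannot be set directly beside those of genes outside the set. Among 9586 other genes with a mean of at least 10 CPM, the 5 with the most similar centred profiles were Fam110b (0.0975), Armcx6 (0.102), Lsp1 (0.102), Kcnh2 (0.116) and Smad3 (0.128). Smad3, a signal transducer of transforming growth factor beta, stood at 155 CPM in MT shKap1 and 148 CPM in MT shCtrl, and at 91.6 and 106 CPM in MB shKap1 against 59.3 and 87.1 CPM in MB shCtrl. This likeness is a description over 6 libraries that share stage, hairpin and file mark.

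Markers of other cell types that make collagen were measured beside these results. The 7 fibroblast and tendon markers summed to 86.8 CPM in MT shKap1 and 98.2 CPM in MT shCtrl, and to 83.5 and 61.2 CPM in MB shKap1 against 82.2 and 71.6 CPM in MB shCtrl, with Tcf21 at 0 throughout. The 7 bone and cartilage markers summed to 52.2 CPM in MT shKap1 and 49.2 CPM in MT shCtrl, and to 65.9 and 60.8 CPM in MB shKap1 against 82.8 and 68.9 CPM in MB shCtrl. The bone and cartilage sum was lower in both MB knockdown libraries than in both MB control libraries. The fibroblast and tendon sum was higher with knockdown in MB replicate 1 and lower in replicate 2. Single markers could differ from their sum. Of the bone and cartilage markers, Runx2 and Sox9 were lower with knockdown within each MB replicate number. Runx2 had 44.1 and 44.0 CPM in MB shKap1 against 51.6 and 47.3 CPM in MB shCtrl. Sox9 had 20.25 and 16.5 CPM in MB shKap1 against 29.8 and 21.1 CPM in MB shCtrl. In MT, knockdown against control, Runx2 was higher (36.8 against 23.5 CPM) and Sox9 lower (14.3 against 24.4 CPM). The cartilage collagen Col2a1 had 0.336 CPM in MT shKap1 and 0.599 CPM in MT shCtrl, and 0.633 and 0.0928 CPM in MB shKap1 against 0.290 and 0 CPM in MB shCtrl (log2 difference 1.36 in MB, adjusted p = 0.287). The tendon marker Tnmd had 5.99 CPM in MT shKap1 and 0.165 CPM in MT shCtrl, and 0.0422 and 1.28 CPM in MB shKap1 against 0.0725 and 0.353 CPM in MB shCtrl. Of the other fibroblast and tendon markers, Scx was lower with knockdown in MT (32.1 against 53.7 CPM). Within MB replicates 1 and 2 Scx was lower too (14.7 against 20.8 CPM and 38.7 against 52.2 CPM). Pdgfra was higher with knockdown in MT (45.4 against 39.8 CPM) and in both MB replicates (64.4 against 57.3 CPM and 19.1 against 17.2 CPM). The part of these markers in the collagen differences was not tested. The 6 smooth muscle markers summed to 5573 CPM in MT shKap1 and 5862 CPM in MT shCtrl, and to 6282 and 2171 CPM in MB shKap1 against 3407 and 1483 CPM in MB shCtrl. Their sum was higher with knockdown within each MB replicate number, but the MB groups overlapped. It was 2171 CPM in MB shKap1 replicate 2 and 3407 CPM in MB shCtrl replicate 1. The part of this sum in the MB rise of the collagens was not tested. Acta2 made most of the sum (4683 of 6282 CPM in MB shKap1 replicate 1). Acta2, Tagln, Cnn1 and Actg2 were each higher with knockdown in both replicate numbers. In replicate 1 Smtn was lower (81.2 CPM in MB shKap1 against 91.7 CPM in MB shCtrl), as was the scarce Myh11 (0.0845 against 0.121 CPM). In bulk RNA, fewer or more cells of a kind and less or more RNA per cell cannot be told apart.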

How the data were processed

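The deposited values are raw read counts per Ensembl gene, with a separate file per library. TopHat2 2.0.11, HTSeq and mm9 are named in the submitters' processing notes. The sources used here do not give counting mode, strand setting or annotation release. Opposite-strand genes overlap Col5a1, Col5a3 and Col12a1 and had at most 375, 1 and 4 counts in a library. Whether their reads were kept apart by strand is not known. The 5 summary lines of each file did not enter library sizes or tests: reads in no feature were 5.18% to 8.07% and ambiguous reads 2.81% to 2.93%. Symbols and exon lengths came from GENCODE M21 (32919 identifiers matched).

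Tests on these counts used the robust quasi-likelihood method of edgeR 4.0.16 (under R 4.3.3; TMM scaling, filterByExpr by group, Benjamini-Hochberg over 16472 genes), with SE taken as the log2 change over the root of F. The design fixed as primary had 4 group means, and a second fit added the file mark, which leaves 1 residual degree of freedom against 2 and shares all 6 libraries. DESeq2 1.42.0, other scalings, no low-count filter and leaving out MB libraries were the alternatives. The code was tested on simulated data. The labels do not say that MB replicates are separate cultures, so p-values measure the spread between these libraries, which may be technical. Intervals and floors cover counting error only.

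The members, the lists and the use of both fits were chosen with earlier results of these data known. Named genes were the 8 members, Trim28, the 4 genes of each list with the smallest p in MB and in MT knockdown with the file mark term, and the 5 genes most like the members' mean profile by root mean square difference of centred log2(CPM + 0.5). P4ha3, Mmp2, Mia3, and the MT values of Adamts2 and Loxl1 fall outside this rule and were chosen after their values were seen. So were the markers Tcf21, Col2a1, Tnmd, Scx, Pdgfra, Runx2 and Sox9.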

Additional observations from a re-analysis of the deposited data

Results flagged for a closer look

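The knockdown effect differed between stages for Col1a1, Col3a1 and Col5a1, by a test of the difference itself (edgeR quasi-likelihood with the file mark term, Benjamini-Hochberg). The MT effect minus the MB effect was -1.22 for Col1a1, -1.12 for Col3a1 and -1.15 for Col5a1 on the log2 scale. Col1a1 and Col5a1 were higher with knockdown in both MB replicates and lower in MT, while Col3a1 was lower in MT with values of 0.20 and -0.07 within the MB replicates. Each MT arm is 1 library. With group means alone edgeR gave differences of -1.22 for Col1a1, -1.07 for Col3a1 and -1.15 for Col5a1, with adjusted p of 0.927, 1 and 0.948. DESeq2 on group means gave an adjusted p of 0.00408 for Col1a1, 1 for Col3a1 and 0.024 for Col5a1.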

How the results depend on the processing

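Adding the replicate block (the file mark term, which in MB is the replicate number) to the fit of group means raised the members called from 0 to 6 in MB knockdown, 5 in MT knockdown, 7 in control differentiation, 4 in knockdown differentiation and 3 for the stage difference. Over all 16472 tested genes it raised the calls from 0 to 2.51% higher and 1.34% lower in MB knockdown, and 9.09% and 11.2% in MT knockdown. The shares were 22.3% and 22.6% in control differentiation and 16.6% and 16.5% in knockdown differentiation. For the stage difference they were 3.82% and 6.63%. The MB replicate deviations of knockdown and control correlated across genes (r = 0.762), but the labels do not say what the number marks. With group means alone DESeq2 called 3 members in MB knockdown, 6 in control differentiation, 2 in knockdown differentiation and 2 for the stage difference, and no low-count filter gave 4 in control differentiation. Over all 16472 tested genes that DESeq2 fit called 39 higher and 13 lower in MB knockdown, and 1292 and 1092 in control differentiation. It called 358 and 485 in knockdown differentiation, and 19 and 147 for the stage difference. No count over all genes was made without the filter. With the file mark term the stage difference called 6 members without the filter and 5 with DESeq2, and the other member counts stayed within 1.5 times. Over all tested genes DESeq2 with the term called 266 higher and 692 lower for the stage difference.

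Reversed values were few. With 1 MB library left out of the group means, Col3a1 in MB knockdown ranged from -0.54 to 0.76, Col5a3 in MB knockdown from -1.14 to 0.59 and Col5a3 in knockdown differentiation from -1.13 to 0.61, the last also 0.38 with the replicate block. With 1 replicate number left out, Col3a1 in MB was 0.199 or -0.0653 and Col5a3 -0.626 or 0.213. Total count scaling gave 0.0294 for Col1a2 in MT, with and without the file mark term, against -0.11. Leaving out a library could not be tested with the file mark term, since no residual degree of freedom is left.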
